A study of Mus musculus with 6 samples.

Results

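The genes described here are 6 transcription factor genes that steer helper T cells towards Th17 or follicular fates: Rora and Ahr on the Th17 side, Bcl6, Tox and Tox2 on the follicular side, and Maf, which serves both. They were chosen by name, and each was matched to a row, which makes 6 of the 37187 genes in the raw count table. All 6 also passed the filter on low counts, which left 13626 genes to test. RNA was sequenced from lymph node regulatory T cells (Tregs) of mice that carried the B16.F10 melanoma, a transplantable tumour line of C57BL/6 origin. Tested were 3 libraries from il33-/- animals on a C57BL6 background (KO, replicates 4 to 6), set against 3 from C57BL6 animals with intact Il33 (WT, replicates 1 to 3). Every animal of both groups had received 300000 B16.F10 cells subcutaneously, and on day 14 cells positive for CD4, CD25 and GITR were sorted from the nodes draining the tumour. The labels also call the cells Foxp3+, a marker the sort did not use. The labels give neither age nor sex and do not say whether a library pools several animals, so the p-values given here describe only the spread among these 6 libraries, which may be technical.

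Helper T cells take on distinct programmes, each held by a few DNA-binding factors, and Tregs can switch on parts of the same programmes. RORα, encoded by Rora, is a nuclear receptor that promotes the Th17 programme. AHR is a ligand-activated factor that pairs with ARNT and drives genes of xenobiotic metabolism as well as Il22. BCL6 is a zinc finger repressor required by follicular helper T cells, follicular regulatory T cells and germinal centre B cells. c-MAF is a basic leucine zipper factor that drives Il10, Il21 and Il4, and TOX and TOX2 are HMG-box proteins, TOX known from CD4 lineage development and exhausted T cells and TOX2 from follicular helper cells. IL-33, the alarmin that the KO mice lack, is sensed by Tregs through ST2.

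Foxp3, the defining factor of Tregs, was high in all libraries, at 857, 790 and 849 CPM in KO replicates 4, 5 and 6 against 729.8, 803 and 719 CPM in WT replicates 1, 2 and 3 (CPM, counts scaled to library size with TMM factors). Its deposited FPKM, a level per length, was 207.2 ± 8.78 in KO and 188 ± 11.7 in WT (SD, n = 3 each). Total counts ran from 18071928 to 21165063 per library. Transcripts of other cells were present in the sort. The 18 B cell markers, all detected, summed to 459, 599 and 361 CPM in KO replicates 4, 5 and 6 against 2344, 1224 and 1813 CPM in WT replicates 1, 2 and 3. WT replicate 2 therefore had the least B cell signal of the WT libraries. The other marker lists were lower: 7 germinal centre B markers summed to 77.8 to 81.1 CPM in KO and 72.3 to 76.1 in WT. The 14 myeloid and dendritic markers summed to 45.1 to 65.9 CPM in KO and 59.8 to 89.3 in WT (Lyz2 at 23.7 and 31.1 CPM on average), and 10 NK and innate lymphoid markers to 45.9 to 49.9 in KO and 44.7 to 50.2 in WT (Ncr1 at 1.87 and 3.14 CPM). The 2 CD8 genes summed to 22.3 to 31.0 CPM in KO and 32.7 to 36.3 in WT, and 6 melanoma genes, of which 3 had any read, to 31.9 to 36.8 in KO and 22.9 to 30.7 in WT. The 9 Treg markers summed to 5711 to 5908 CPM in KO and 4840 to 5535 in WT.

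Of the 6 factors, Tox2 was higher in KO Tregs by 1.55-fold and passed the test, while the other 5 did not pass in either direction. Rora, Ahr and Tox had higher mean levels in KO, and Bcl6 and Maf had lower ones. The test was the quasi-likelihood test of edgeR, adjusted by Benjamini-Hochberg over all genes at a threshold of 0.05. It called 1 of the 6, beside 886 of 13626 genes tested (6.50%), and over all genes 3.68% were called higher and 2.83% lower in KO. Before adjustment 4 of the 6 (Rora, Ahr, Tox and Tox2) had a p under 0.05, all higher in KO, beside 21.8% of all genes tested, 11.0% higher in KO. The median log2 fold change of the 6 was 0.24, against 0.0003 for all genes tested. DESeq2 called 2 of them, Ahr and Tox2, beside 1168 of all 24068 genes that it fitted. By limma-voom 1 was called, beside 822 of all 13626 genes. In 2 of the 6, Ahr and Tox2, every KO library lay above every WT library, a pattern that 13.7% of all tested genes showed, while 0 of the 6 had every KO library below every WT library (12.6% of all tested genes). In bulk RNA a smaller share of cells expressing a gene and less RNA per cell cannot be told apart.

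**Figure D1:**
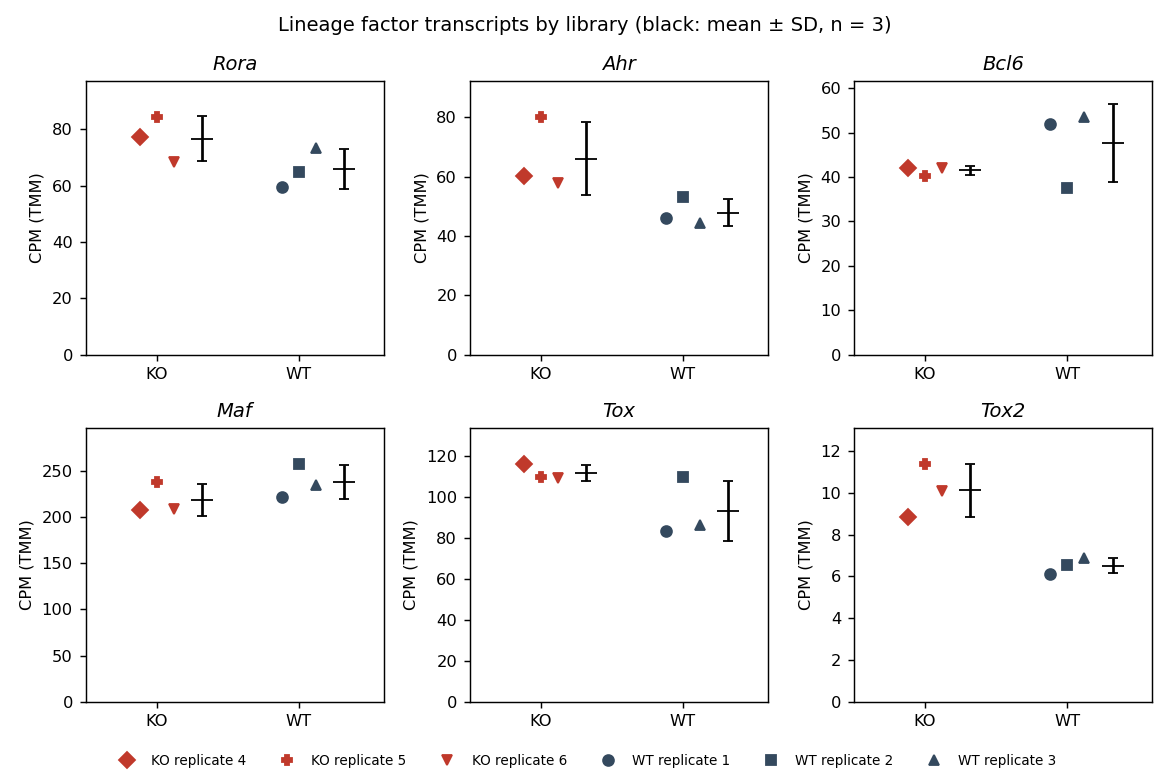
CPM (TMM-scaled, axes starting at 0) of the 6 lineage factors in each library, KO in red on the left and WT in dark blue on the right of each panel, with the mean and SD of 3 libraries in black. The groups are separate for Ahr and Tox2 and overlap for Rora, Bcl6, Maf and Tox; in WT, replicate 2 lies apart from replicates 1 and 3 for Bcl6, where it is below all KO libraries, and for Tox, where it is among them.

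The 6 genes span a wide range of levels per length. In KO the order of mean FPKM was Maf at 26.4 ± 2.15, Tox at 14.6 ± 0.531, Ahr at 10.7 ± 2.01, Bcl6 at 6.15 ± 0.144, Rora at 5.84 ± 0.639 and Tox2 at 2.96 ± 0.371 (SD, n = 3). In WT the same order held, with Maf at 28.8 ± 2.23, Tox at 12.2 ± 1.92, Ahr at 7.74 ± 0.771, Bcl6 at 7.08 ± 1.30, Rora at 5.03 ± 0.529 and Tox2 at 1.91 ± 0.108 FPKM. Neighbours in that order were separated in every library except Bcl6 and Rora, whose ranges overlapped in both groups, and Ahr and Bcl6, whose ranges overlapped in WT but not in KO. Averaged over the 6 libraries, Maf lay above 80.6% of tested genes in FPKM, Tox above 61.6%, Ahr above 52.2%, Bcl6 above 44.5%, Rora above 40.7% and Tox2 above 27.3%. For scale, Gata3, a factor of type 2 cells, had 34.7 ± 2.38 FPKM in KO and 28.1 ± 2.14 in WT, above Maf in KO and close to it in WT. Bcl6 and Rora were in the range of Tbx21, which encodes T-bet (6.26 ± 0.395 in KO and 4.33 ± 0.689 in WT). All were far below Foxp3.

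**Figure D2:**
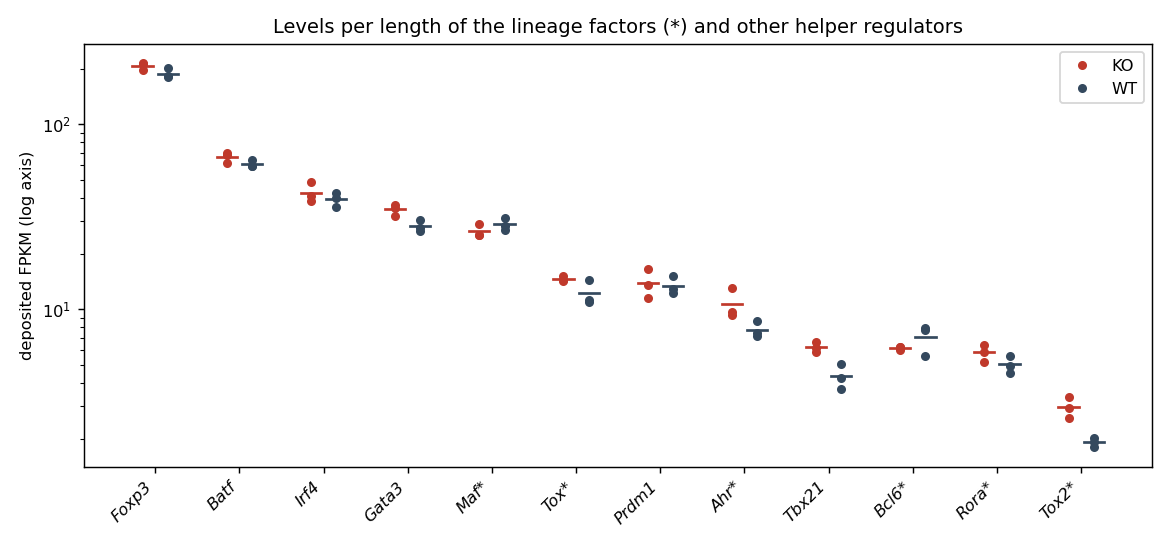
Deposited FPKM on a log axis for the 6 lineage factors (starred) and 6 other regulators of helper fates, one point per library, KO in red left of WT in dark blue, with group means as bars. Maf is the highest of the 6, near Gata3, and Tox2 is the lowest of the 12 genes shown.

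The Th17-side factor Rora (ENSMUSG00000032238, chromosome 9, GRCm38 positions 68653786 to 69388246, plus strand) is a long gene with 13071 bases of merged exons. It had 77.4, 84.5 and 68.3 CPM in KO replicates 4, 5 and 6, against 59.6, 64.9 and 73.4 CPM in WT replicates 1, 2 and 3. KO replicate 6 lay below WT replicate 3, so the groups overlapped. The log2 fold change was 0.22 (SE 0.09, 95% interval 0.02 to 0.42 before adjustment), and edgeR gave an adjusted p of 0.194. An antisense gene within the locus, Gm15511, had 12 counts over all libraries against 8665 for Rora. How strand was counted is not known, so these counts do not bound the antisense reads within Rora.

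The effector end of the Th17 programme was near the limit of detection. Il17a, the signature cytokine, had 5, 1 and 4 counts in KO replicates 4, 5 and 6 and 0, 0 and 1 counts in WT replicates 1, 2 and 3. Il17f had 0, 4 and 12 counts in KO and 3, 1 and 1 in WT, and Il22, an AHR-dependent cytokine, had 0, 0 and 2 in KO and 1, 1 and 3 in WT. A count of 0 allows up to 3 counts, or 0.142 to 0.166 CPM depending on the library, for counting error only. The receptor gene Il23r was higher than these, at 3.59 ± 0.395 CPM in KO and 3.36 ± 1.28 CPM in WT (SD, n = 3 each), and edgeR gave an adjusted p of 0.890.

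Of the 21 other genes of the Th17 programme 17 were tested, and 1 rose, 1 fell and 15 did not pass (11.8% called, against 6.50% of all genes). Their median log2 fold change was 0.12, against 0.0003 for all genes. Nfkbiz, which encodes the nuclear IkB protein IkBζ, rose, with 415, 383 and 345 CPM in KO replicates 4, 5 and 6 against 201, 250.4 and 261 CPM in WT replicates 1, 2 and 3. Its log2 fold change was 0.68 (SE 0.11, adjusted p = 0.0112 in edgeR). Ikzf3, which encodes the Ikaros family factor Aiolos, fell, with 384, 370.0 and 325 CPM in KO against 479.7, 441 and 454 CPM in WT. Its log2 fold change was -0.35 (SE 0.07, adjusted p = 0.00754 in edgeR), and Ikzf3 is also expressed by B cells, the markers of which had lower sums in KO. With a score of the B cell markers in the model the log2 fold change was -0.18 (adjusted p = 0.697 in edgeR). Every KO library scored below every WT library, so that model cannot cleanly separate B cell signal from genotype. The part of B cell RNA in the fall was not tested. For Nfkbiz the same model gave 0.55 (adjusted p = 0.482 in edgeR). Without KO replicate 5 the edgeR adjusted p of Nfkbiz was 0.0505, and the count of called genes on this list was then 1.

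Clock genes and other genes with ROR elements gave 2 of 8 genes called, both higher in KO (3.68% of all genes), with a list median of 0.18. Nfil3, a repressor that counts among Th17 antagonists and clock outputs, had 49.6, 49.2 and 46.9 CPM in KO replicates 4, 5 and 6 against 15.6, 24.2 and 19.1 CPM in WT replicates 1, 2 and 3. That is a log2 fold change of 1.31 (SE 0.13, adjusted p = 0.000741 in edgeR). Nr1d2, which encodes the repressor REV-ERBβ that competes with ROR proteins for their element, had 64.9, 66.5 and 59.2 CPM in KO against 48.4, 44.6 and 49.3 CPM in WT. It rose, the log2 fold change being 0.42 (SE 0.07, adjusted p = 0.00314 in edgeR). Both genes passed with any 1 library left out. With the B cell marker score in the model neither did, at log2 fold changes of 0.85 for Nfil3 and 0.62 for Nr1d2 (adjusted p = 0.0687 and 0.0561 in edgeR).

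The 300-base window around the annotated start of Rora, 250 bases before and 50 after, is given because it holds the letters of the core motif of another of the 6, AHR. The sequence is from RefSeq (GRCm38.p6, chr9:68653536-68653835, plus strand), written 5′ to 3′, with matches to 4 motifs in capitals. The motifs were the AHR core GCGTG, the ROR half-site AGGTCA, the MAF half-site TGCTGA and the BCL6-type element TTCNNNGAA, each searched on both strands.
Rora: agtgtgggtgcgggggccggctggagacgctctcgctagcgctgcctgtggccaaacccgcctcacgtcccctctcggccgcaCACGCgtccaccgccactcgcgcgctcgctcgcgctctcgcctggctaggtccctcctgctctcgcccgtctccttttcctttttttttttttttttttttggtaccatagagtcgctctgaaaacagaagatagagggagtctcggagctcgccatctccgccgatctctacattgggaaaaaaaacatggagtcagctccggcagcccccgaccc
The window held 1 AHR core, on the minus strand at position -167 counted from the start, and no match to the other 3 motifs. The AHR core occurs in 32.4% of the 32817 RefSeq promoter windows of the same length, the ROR half-site in 16.3%, the MAF half-site in 19.5% and the BCL6-type element in 8.29%. A match is a string of letters and not a measured binding site.

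Ahr (ENSMUSG00000019256, chromosome 12, 35497974 to 35535038, minus strand) was separate between the groups without passing the test. It had 60.1, 80.2 and 57.9 CPM in KO replicates 4, 5 and 6, against 46.0, 53.2 and 44.4 CPM in WT replicates 1, 2 and 3. All KO libraries were above all WT libraries, and KO replicate 5 stood well above the other two. The log2 fold change was 0.46 (SE 0.14, 95% interval 0.14 to 0.78 before adjustment), and edgeR gave an adjusted p of 0.101. DESeq2 called it, at an adjusted p of 0.00307. Without KO replicate 5 the log2 fold change was 0.30, at 0.0865 after adjustment in edgeR. A gene on the other strand of Ahr, Gm48236, and one on that of Bcl6, Gm37419, were not analysed here.

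AHR works with ARNT, and its activity is usually read from a small set of induced genes. Of 15 genes on the list of AHR partners and targets 10 were tested, and 2 rose (20%, against 3.68% of all genes) and 8 did not pass, with a median log2 fold change of 0.24. Tiparp, an AHR-induced ADP-ribosyltransferase that restrains AHR, had 44.9, 51.2 and 42.6 CPM in KO replicates 4, 5 and 6 against 29.9, 27.2 and 31.8 CPM in WT replicates 1, 2 and 3. The groups were well apart, with a log2 fold change of 0.64 (SE 0.09, adjusted p = 0.00109 in edgeR), and Tiparp passed with any 1 library left out. It also passed in edgeR with a score of the 18 B cell markers added to the model (adjusted p = 0.0175). Gpr15, a homing receptor gene that AHR induces in T cells, had 16.7, 21.7 and 17.8 CPM in KO against 10.7, 15.4 and 12.8 CPM in WT. It rose, the log2 fold change being 0.53 (SE 0.14, adjusted p = 0.0452 in edgeR). This call was lost when KO replicate 5 or 6, or WT replicate 1 or 3, was left out, the highest adjusted p in edgeR being 0.176. For Gpr15 the model with the B cell marker score gave 0.26 on the log2 scale (adjusted p = 0.819 in edgeR).

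The classical AHR targets were barely present. Cyp1a1, the cytochrome P450 gene most used as an AHR reporter, had 2, 6 and 10 counts in KO replicates 4, 5 and 6 and 7, 1 and 0 counts in WT replicates 1, 2 and 3. Ahrr, which encodes the AHR repressor, had 3, 6 and 11 counts in KO and 8, 0 and 1 in WT. Cyp1b1 had 2, 6 and 0 in KO and 0, 0 and 4 in WT. None of the 3 passed the filter on low counts, so they were not tested, and the libraries of the groups overlapped in each. The partner gene Arnt was at 13.2 ± 0.760 FPKM in KO and 12.3 ± 0.501 in WT. Its log2 fold change was 0.10 (SE 0.06, adjusted p = 0.394 in edgeR).

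Bcl6 (ENSMUSG00000022508, chromosome 16, 23965052 to 23988852, minus strand) had nearly the same level in the KO libraries and a wide spread in WT. It had 42.1, 40.3 and 42.1 CPM in KO replicates 4, 5 and 6, against 51.8, 37.5 and 53.6 CPM in WT replicates 1, 2 and 3. WT replicates 1 and 3 were above all KO libraries and WT replicate 2 was below them all. The coefficient of variation of FPKM was 2.34% in KO and 18.4% in WT. The log2 fold change was -0.20 (SE 0.12, 95% interval -0.47 to 0.07 before adjustment), and edgeR gave an adjusted p of 0.394.

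Among the WT libraries Bcl6 was lowest where B cell signal was lowest, but the rest of the order differed. WT replicate 1 had the most B cell signal and less Bcl6 than WT replicate 3 (51.8 against 53.6 CPM). In KO, replicate 5 had the most B cell signal, at 599 CPM, and the lowest Bcl6, at 40.3 CPM. Summed B cell markers were 1224 CPM in WT replicate 2 and 2344 and 1813 CPM in WT replicates 1 and 3. Summed markers of germinal centre B cells, known for high Bcl6, ran from 72.3 to 76.1 CPM in WT. That sum does not follow each of its markers. Of the 6 tested, 1 rose in edgeR, while log2 fold changes ran from -0.67 to 0.29 with a median of -0.27. Without WT replicate 2 the log2 fold change of Bcl6 was -0.34 (edgeR adjusted p = 0.00681), and with the B cell marker score in the model it was 0.26 (edgeR adjusted p = 0.678), the opposite sign. That score ran from 3.86 to 4.61 in the KO libraries and from 5.04 to 6.56 in the WT libraries, without overlap. The model therefore cannot cleanly separate B cell signal from genotype. The part of B cell RNA in the Bcl6 level was not tested. Cxcr5, the follicle-homing receptor gene that B cells also express, had 45.1, 50.1 and 49.98 CPM in KO replicates 4, 5 and 6 against 78.1, 47.4 and 72.1 CPM in WT replicates 1, 2 and 3, so it too was low in WT replicate 2 alone among WT. Its log2 fold change was -0.44 (SE 0.20, adjusted p = 0.285 in edgeR, and 4.79e-05 without WT replicate 2). DESeq2 called Cxcr5 lower in KO, at an adjusted p of 0.0154, and with the B cell marker score in the edgeR model its log2 fold change was 0.26 (adjusted p = 0.679).

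**Figure D3:**
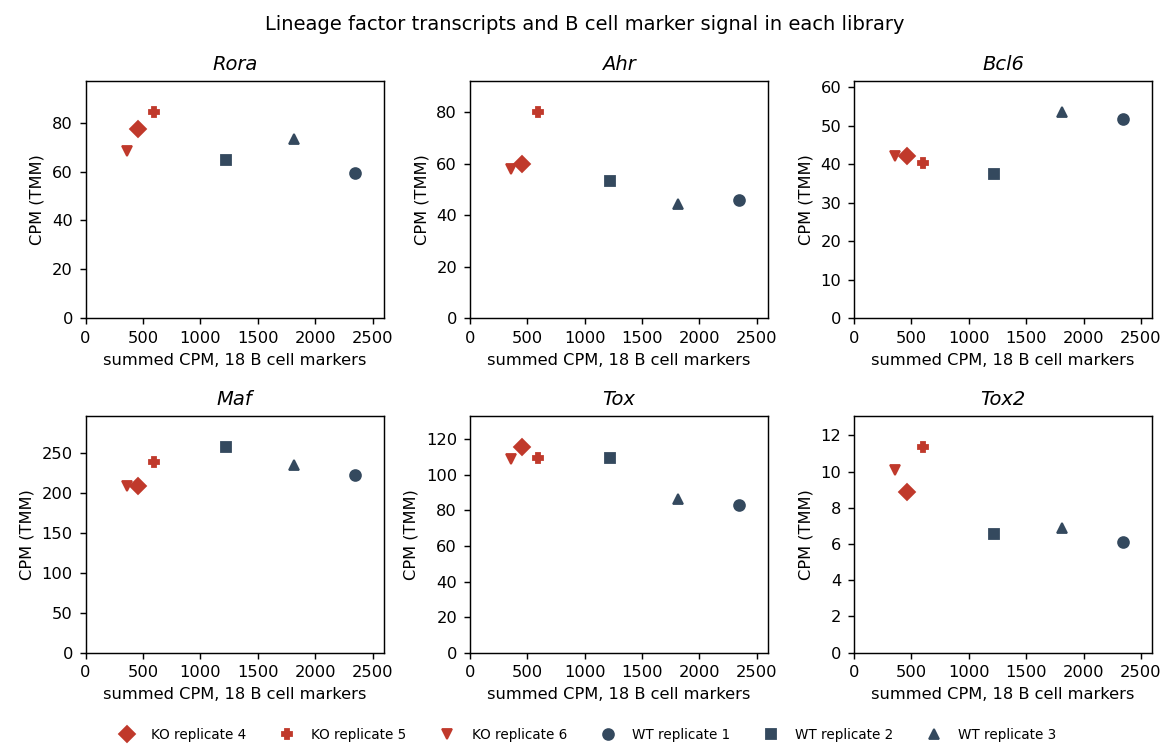
CPM of each lineage factor (y axis) against the summed CPM of 18 B cell markers (x axis) in the 6 libraries, KO in red and WT in dark blue, both axes starting at 0. The 2 WT libraries with most B cell signal have the highest Bcl6 and the lowest Tox, while WT replicate 2, at 1224 CPM of B cell signal, is below all KO libraries for Bcl6 and among them for Tox.

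RefSeq lists a pair of start sites for Bcl6, and the windows around both are shown because BCL6 is known to repress its own gene. Both are on the minus strand of GRCm38.p6, at chr16:23988803-23989102 for the upstream start, which is also the start of the annotated gene, and at chr16:23981234-23981533 for the downstream one. Capitals again mark the motifs named for Rora.
Bcl6 upstream: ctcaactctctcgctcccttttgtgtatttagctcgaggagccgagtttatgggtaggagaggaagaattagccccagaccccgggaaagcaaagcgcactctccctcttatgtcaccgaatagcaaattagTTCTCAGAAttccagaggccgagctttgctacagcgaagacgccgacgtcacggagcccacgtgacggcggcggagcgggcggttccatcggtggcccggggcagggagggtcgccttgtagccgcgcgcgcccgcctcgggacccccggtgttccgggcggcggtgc
Bcl6 downstream: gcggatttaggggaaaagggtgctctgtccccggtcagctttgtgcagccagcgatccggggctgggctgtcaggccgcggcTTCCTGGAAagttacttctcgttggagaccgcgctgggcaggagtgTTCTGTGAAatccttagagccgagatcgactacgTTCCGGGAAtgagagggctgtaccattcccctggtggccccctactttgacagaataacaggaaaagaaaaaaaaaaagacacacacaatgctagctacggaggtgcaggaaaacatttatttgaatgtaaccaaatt
Matches in these windows were all to the BCL6-type element TTCNNNGAA, whose letters read the same on both strands and which STAT proteins also bind. The upstream window had 1, at position -118, and the downstream window had 3, at -168, -122 and -88. Of the 32817 windows 11 (0.0335%) held at least 3.

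Of 11 genes that BCL6 is known to restrain 2 rose (18.2%, against 3.68% of all genes) and 9 did not pass, with a median log2 fold change of -0.02. Those that rose were lineage factors of other fates: Tbx21 by 0.54 (SE 0.13, adjusted p = 0.0263 in edgeR) and Gata3 by 0.31 (SE 0.07, adjusted p = 0.0206 in edgeR) on the log2 scale. Both calls were lost when KO replicate 5 or 6, or WT replicate 1 or 3, was left out, which left 0 called in each case (3 to 6 with an unadjusted p under 0.05 in the edgeR test). Their log2 fold changes with the B cell marker score in the model were 0.22 and 0.10 (adjusted p = 0.839 and 0.879 in edgeR). They were also the 2 called among 14 regulators of helper lineages (14.3%), a list with a median log2 fold change of 0.12. Prdm1, which encodes BLIMP-1, the repressor that opposes BCL6, had 63.8, 91.1 and 75.3 CPM in KO replicates 4, 5 and 6 against 67.2, 83.3 and 71.3 CPM in WT replicates 1, 2 and 3. These overlapped throughout (log2 fold change 0.05, SE 0.14, edgeR adjusted p = 0.883). Per length Prdm1 was above Bcl6 in both groups, at 13.9 ± 2.49 FPKM in KO and 13.4 ± 1.54 in WT.

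Of 10 genes for BCL6 corepressors 0 passed by edgeR, DESeq2 or limma-voom (6.50% of all genes by edgeR). In the edgeR test 2 had an unadjusted p under 0.05, near the share over all genes (21.8%). The 2 with the highest FPKM were Ctbp1, at 228 ± 1.73 CPM in KO and 248 ± 11.3 CPM in WT, and Cul3, at 255 ± 5.8 CPM in KO and 244.5 ± 7.88 CPM in WT. Their log2 fold changes were -0.12 (SE 0.05, adjusted p = 0.202 in edgeR) and 0.06 (SE 0.05, adjusted p = 0.545 in edgeR).

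Tox (ENSMUSG00000041272, chromosome 4, 6686353 to 6991557, minus strand) was tightly grouped in KO. It had 116, 109.5 and 109.1 CPM in KO replicates 4, 5 and 6, against 83.2, 109.6 and 86.2 CPM in WT replicates 1, 2 and 3. WT replicate 2 lay among the KO libraries and the other WT libraries lay below them. The log2 fold change was 0.26 (SE 0.10, 95% interval 0.05 to 0.47 before adjustment), and edgeR gave an adjusted p of 0.145. Without WT replicate 2 it was 0.40 (edgeR adjusted p = 0.00116), and with the B cell marker score in the model it was -0.10 (edgeR adjusted p = 0.873). Tox and Bcl6 were the 2 of the 6 factors that passed without WT replicate 2 and not with it. The antisense gene Gm11802 within the Tox locus had 37 counts over all libraries against 12442 for Tox.

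Tox2 (ENSMUSG00000074607, chromosome 2, 163203125 to 163324170, plus strand) was the least abundant of the 6 and the one that rose. It had 186, 239 and 212 counts in KO replicates 4, 5 and 6 and 129, 126 and 124 counts in WT replicates 1, 2 and 3. Scaled, these were 8.86, 11.4 and 10.1 CPM in KO against 6.12, 6.55 and 6.86 CPM in WT. The lowest KO library was above the highest WT library. The log2 fold change was 0.64 (SE 0.14, 95% interval 0.33 to 0.94 before adjustment), and edgeR gave an adjusted p of 0.0183. WT replicate 2, with the least B cell signal in WT, lay between the other WT libraries for Tox2, and with the B cell marker score in the model the log2 fold change was 0.68, at 0.472 after adjustment in edgeR. The call was lost when any of 4 libraries was left out, with edgeR adjusted p-values of 0.0881 for KO replicate 5, 0.0693 for KO replicate 6, 0.0718 for WT replicate 1 and 0.0592 for WT replicate 3.

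The TOX family in these cells was made up of Tox and Tox4, with a small part from Tox2. Of the family's summed FPKM, Tox2 held 9.29% ± 0.951 in KO and 6.82% ± 0.573 in WT (SD, n = 3 each), and Tox held 45.9% ± 2.4 in KO and 43.3% ± 3.80 in WT. Tox4, a broadly expressed relative, had 94.1, 104.7 and 99.5 CPM in KO replicates 4, 5 and 6 against 99.6, 96.8 and 94.8 CPM in WT replicates 1, 2 and 3, and edgeR gave an adjusted p of 0.796. Tox3 had 0 counts in KO and 3 in WT over all libraries.

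RefSeq lists several starts for Tox2, and the window around the first is shown because Tox2 is the factor that rose. It lies at chr2:163202877-163203176 on the plus strand of GRCm38.p6, 2 bases from the start of the annotated gene, and capitals mark the same motifs.
Tox2: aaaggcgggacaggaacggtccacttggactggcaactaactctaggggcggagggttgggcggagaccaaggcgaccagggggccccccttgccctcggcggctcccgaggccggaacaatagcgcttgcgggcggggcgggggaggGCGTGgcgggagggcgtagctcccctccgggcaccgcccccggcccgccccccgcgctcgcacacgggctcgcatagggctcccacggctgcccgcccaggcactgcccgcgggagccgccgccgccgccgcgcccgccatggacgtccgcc
The window held 1 AHR core, at position -102 on the plus strand, a motif present in 32.4% of all windows. Its GC content was 77.0%, against a median of 52.7% over all windows, and it held 38 CpG pairs against a median of 7. The other Tox2 windows differed. Around start 2 there was also 1 AHR core, at position 24, and around start 3 no match to any motif. The windows around starts 4 and 5 begin at chr2:163225203 and chr2:163225204 and overlap almost fully. Both held the same 1 MAF half-site (positions 7 and 6) and no AHR core, at 53.3% GC. Promoter windows of Ahr, Maf and Tox were not used here.

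**Figure D4:**
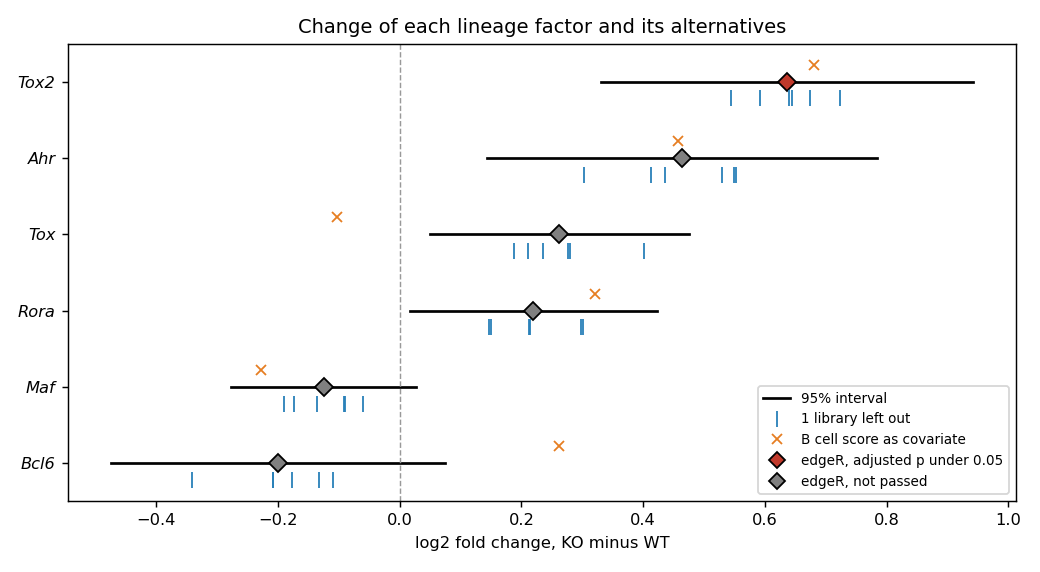
Log2 fold change, KO minus WT, of the 6 lineage factors (x axis), with the edgeR estimate as a diamond (red where the adjusted p was under 0.05), its unadjusted 95% interval as a line, values with 1 library left out as blue ticks and the value with the B cell marker score in the model as an orange cross. Tox2 lies highest at 0.64 and stays at or above 0.54 with any library left out; the crosses of Bcl6 and Tox lie on the other side of 0 from their diamonds.

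Of 26 follicular genes other than the 6 factors 24 were tested, and 3 rose (12.5%, against 3.68% of all genes) and 21 did not pass, with a median log2 fold change of 0.02. DESeq2 also called 3 higher and in addition 2 lower, one of them Cxcr5. Il1r2, the decoy receptor for IL-1 found on follicular and activated Tregs, had 50.7, 62.2 and 49.1 CPM in KO replicates 4, 5 and 6 against 27.8, 36.1 and 35.4 CPM in WT replicates 1, 2 and 3. It rose, the log2 fold change being 0.71 (SE 0.12, adjusted p = 0.0101 in edgeR). Cd40lg, which encodes the T cell ligand for CD40 on B cells, rose by 0.39 (SE 0.07, adjusted p = 0.00785 in edgeR), with 42.7, 42.3 and 42.4 CPM in KO against 30.3, 32.5 and 34.5 CPM in WT. Pdcd1, which encodes PD-1, rose by 0.36 (SE 0.09, adjusted p = 0.0327 in edgeR) and lost the call when KO replicate 4 or 6, or WT replicate 1 or 3, was left out, at an adjusted p of up to 0.145 in edgeR. With the B cell marker score in the model the log2 fold change of Pdcd1 was -0.02 (adjusted p = 0.985 in edgeR), of the opposite sign, and those of Il1r2 and Cd40lg were 0.62 and 0.34 (adjusted p = 0.490 and 0.495 in edgeR). Il21, the follicular helper cytokine, was low, at 2.13 ± 0.477 CPM in KO and 2.45 ± 1.37 in WT (SD, n = 3 each). The genes that rose are also expressed by activated T cells, and why they rose was not tested. Bcl6 and Cxcr5, which define the programme, did not pass in edgeR with all libraries. Without WT replicate 2, the WT library with the least B cell signal, both passed as lower in KO (edgeR adjusted p = 0.00681 and 4.79e-05). Neither passed in edgeR with any other library left out. With the B cell marker score in the model both log2 fold changes were 0.26, of the opposite sign, and neither passed.

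**Figure D5:**
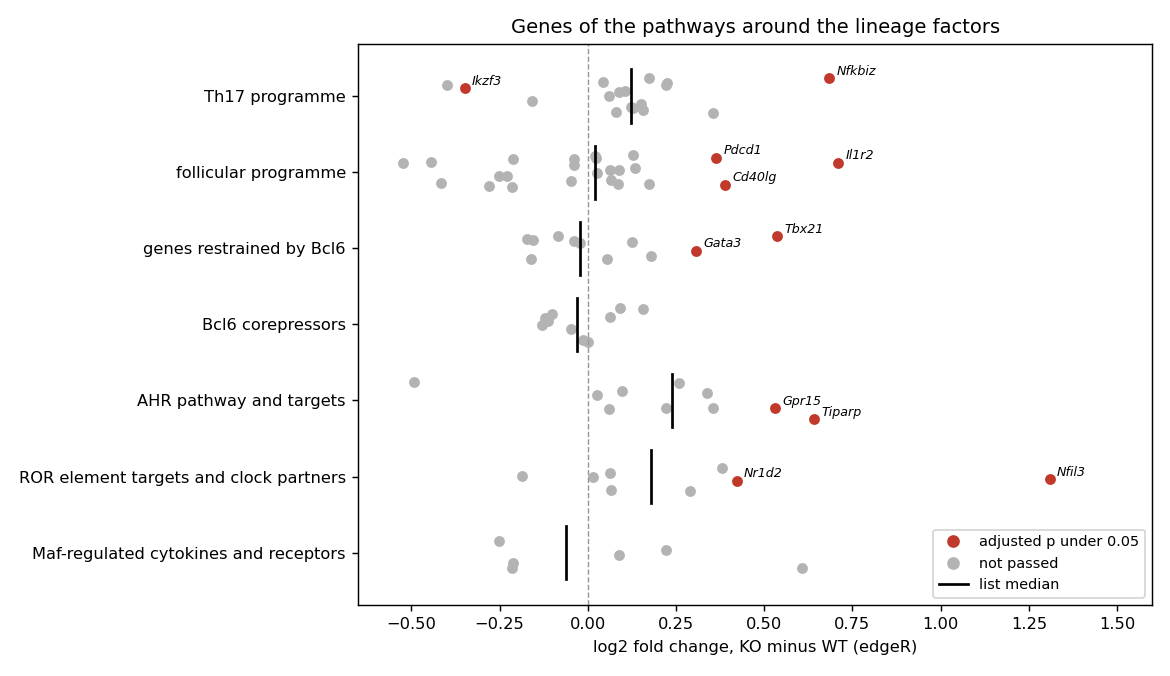
Log2 fold change, KO minus WT (x axis), of every tested gene on 7 lists around the lineage factors, with called genes in red and named, the others in grey and the list median as a black bar. Called genes lie mostly to the right of 0, up to Nfil3 at 1.31, with Ikzf3 at -0.35 as the exception, while the medians lie between -0.06 and 0.24.

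Maf (ENSMUSG00000055435, chromosome 8, 115682942 to 115707794, minus strand) was the most abundant of the 6 and had the narrowest interval. It had 208, 239 and 209 CPM in KO replicates 4, 5 and 6, against 222, 258 and 235 CPM in WT replicates 1, 2 and 3. The groups overlapped through KO replicate 5, the highest KO library. The log2 fold change was -0.12 (SE 0.07, 95% interval -0.28 to 0.03 before adjustment), and edgeR gave an adjusted p of 0.336. In linear terms that interval runs from -17.5% to 1.87%. Without WT replicate 2 it was -0.06, and without KO replicate 5 it was -0.19. None of the 16 alternatives called it, with adjusted p-values of 0.189 to 0.706. The antisense gene Gm15655 at Maf had 0 counts.

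Of 6 genes that c-MAF is known to drive 0 passed by edgeR (6.50% of all genes), and 2 had an unadjusted p under 0.05 (21.8% of all genes). DESeq2 and limma-voom each called 1, Il10, named here after its values were seen. This anti-inflammatory cytokine gene had 16.9, 17.6 and 16.6 CPM in KO replicates 4, 5 and 6 against 7.88, 13.6 and 12.2 CPM in WT replicates 1, 2 and 3, with no overlap. Its log2 fold change was 0.61 (SE 0.17, adjusted p = 0.0570 in edgeR). The adjusted p was 0.0127 in DESeq2, 0.0406 in limma-voom, 0.0453 in edgeR with upper-quartile factors and 0.00572 in edgeR without WT replicate 2. With the B cell marker score in the model the log2 fold change was 0.12 (adjusted p = 0.944 in edgeR). Values of Il10 in the remaining alternatives are not given here, and the main edgeR test did not call it. The 2 with the highest FPKM were Icos, the costimulatory receptor gene, at 136 ± 17.2 FPKM in KO and 159 ± 20.5 in WT, and Ccr6, a chemokine receptor gene of Th17 cells, at 34.5 ± 3.39 in KO and 29.7 ± 2.0 in WT. Their log2 fold changes were -0.22 (SE 0.12, adjusted p = 0.372 in edgeR) and 0.22 (SE 0.08, adjusted p = 0.114 in edgeR). By contrast Maff, a small MAF protein gene that lacks the activation domain of c-MAF, had 40.9, 39.8 and 32.7 CPM in KO replicates 4, 5 and 6 against 5.89, 11.4 and 10.6 CPM in WT replicates 1, 2 and 3. Its log2 fold change was 2.03 (SE 0.24, adjusted p = 0.00811 in edgeR). Of the 5 MAF family genes tested Maff alone was called, beside 6.50% of all genes. When the B cell marker score was in the model its log2 fold change was 1.61 and did not pass (adjusted p = 0.353 in edgeR). Per length, Maff had 17.8 ± 2.15 FPKM in KO and 4.37 ± 1.41 in WT, below Maf in both groups.

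Within the groups the 6 factors did not rank the libraries alike. KO replicate 5 was the highest KO library for Rora, Ahr, Maf and Tox2, and the lowest for Bcl6, while KO replicate 4 was the highest for Tox. WT replicate 2 was the highest WT library for Ahr, Maf and Tox and the lowest for Bcl6, while Rora and Tox2 were highest in WT replicate 3. KO replicate 5 had the most B cell signal of the KO libraries and WT replicate 2 the least of the WT libraries.

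Profiles over the 6 libraries most like each factor were sought among 9545 protein-coding genes with a mean of at least 5 CPM, as the smallest root-mean-square difference of log2 CPM after centring each gene on its own mean. For Tox2 these were Slc16a1, a monocarboxylate transporter gene, and Klf11, a Krüppel-like factor gene, at 0.05 and 0.07 log2 units, against a median of 0.35 for all candidates. For Ahr they were Chek1 and Sh3bp4 (0.06 and 0.09, median 0.30), and for Rora Gemin6 and Reck (0.04 and 0.04, median 0.19). For Bcl6 they were Gucd1 and Strbp (0.05 and 0.06, median 0.21), for Tox Creb3l2 and Fbxw17 (0.04 and 0.05, median 0.21) and for Maf Kif20b and Slc39a6 (0.03 and 0.03, median 0.15). The nearest of 9545 candidates must lie below their median, so these distances are no test of shared regulation.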

How the data were processed

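RNA of 6 Treg libraries, 3 KO and 3 WT, was analysed. Per the submitters' processing notes, bcl2fastq, STAR 2.4.2a and DESeq2 were used with GRCm38; for the counting tool, its strand use and its annotation the sources used here give nothing. Deposited by the authors were raw counts per Ensembl gene, normalized counts (a signal that equals the count over a single library factor in 99.9% of 9335 genes, within 1e-06) and FPKM per symbol. Symbols and positions came from GENCODE M21 (35412 of 37187 IDs matched), and promoters from RefSeq GRCm38.p6. Unmatched IDs held 0.260% to 0.308% of counts and stayed in the tests.

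The main test, on raw counts, was edgeR 4.0.16 under R 4.3.3 (filterByExpr, TMM, robust quasi-likelihood fit, two-sided, Benjamini-Hochberg, threshold 0.05); the SE came from the F statistic. The procedure was also run on counts simulated with means and dispersions fitted to these same libraries. Such counts cannot show how B cell signal bears on the calls, and their results are not given here. No 2 libraries of a group agreed within sampling noise (chi-square per degree of freedom 5.16 to 14.6). Intervals and the floor of 3 counts cover counting or replicate error only.

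Alternatives were DESeq2 1.42.0, limma-voom (limma 3.58.1), RLE and upper-quartile factors, no filter or at least 1 CPM in 3 libraries, limma on log2(normalized count + 1) and on log2(FPKM) with 1 or 0.1 added, a covariate made of 18 B cell markers (their mean log2 CPM), and each library left out. The covariate ran from 3.86 to 4.61 in KO and from 5.04 to 6.56 in WT, so it cannot be cleanly separated from genotype. With it the SE of the Tox2 log2 fold change went from 0.14 to 0.29. Members and lists were chosen with earlier results of these data known. Named were the 6 factors, up to 4 called genes of each list (where none was called, the 2 with the highest FPKM), a set of defining genes, and the 2 most similar profiles of each factor; a few genes that the rule names are not reported here.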

Additional observations from a re-analysis of the deposited data

How the results depend on the processing

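Of the 6 factors, Maf stayed uncalled and lower in KO in all 16 alternatives. Without a count filter, Rora, Ahr and Tox passed at log2 fold changes of 0.22, 0.46 and 0.26, and Ahr also passed by DESeq2 at 0.46. With the B cell marker score in the model Bcl6 had 0.26 and Tox -0.10, neither passing, and Tox2 lost its call at 0.68. On log2(FPKM + 1) and log2(FPKM + 0.1), limma gave Tox2 0.44 and 0.60, adjusted p-values 0.0517 and 0.0541. With 1 library left out the log2 fold changes ran from 0.54 to 0.72 for Tox2, 0.19 to 0.40 for Tox, 0.30 to 0.55 for Ahr, 0.15 to 0.30 for Rora, -0.19 to -0.06 for Maf and -0.34 to -0.11 for Bcl6. The number of all genes called was 886 of 13626 in the main test, 1645 of 24068 without a filter and 40 of 13626 with the covariate. On log2(FPKM + 0.1) and log2(FPKM + 1) it was 411 and 397 of 11965. With 1 library left out it ran from 367 of 13947 (without WT replicate 3) to 1364 of 14018 (without WT replicate 2).

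Calls on the lists, by edgeR unless named, were as follows. Without a filter they were 4 for Th17, 7 for follicular and 5 for AHR genes. With the covariate they were 0, 0 and 1, and 0 for both the genes restrained by Bcl6 and the helper regulators (with an unadjusted p under 0.05 in 2 Th17, 4 follicular, 3 restrained and 0 regulator genes). DESeq2 gave 5 follicular and 4 AHR genes, and RLE factors gave 1 AHR gene. On log2(FPKM + 1) and log2(FPKM + 0.1) limma gave 1 AHR gene each, and 0 restrained genes and 0 helper regulators (5 and 4 unadjusted). With 1 library left out the ranges were 1 to 2 for Th17, 2 to 6 for follicular (6 without WT replicate 2), 1 to 4 for AHR, and 0 to 2 for both restrained genes and helper regulators. AHR calls were 4 without WT replicate 2 or KO replicate 4, and 1 without any other. The cause of these shifts was not tested.

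No paired analysis was possible because the replicate numbers of KO (4 to 6) and WT (1 to 3) share no number. Depth limits Il17a, Il17f, Il22, Cyp1a1, Cyp1b1 and Ahrr, none of which passed the count filter.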
